A study of Mus musculus with 41 samples.

Results

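This account concerns genes that mark the cells of brain capillaries: 9 genes of the endothelium (Cldn5, Flt1, Pecam1, Slco1c1, Ly6c1, Abcb1a, Slc2a1, Kdr and Tek) and Pdgfrb, a receptor of the pericytes that wrap them. They were taken by name. The platform annotation gave 9 of these 10 genes a probe set of their own, 16 probe sets of the 45037 on the array that are not controls, and 15 of the 16 passed the filter on dim signals. The tenth, Ly6c1, shares its only probe set with Ly6c2, so no value is given for it. Hippocampal RNA came from 41 male C57BL/6J mice, an inbred strain, and went onto 1 Affymetrix array per mouse. All mice went through the same behavioural battery from an age of 10 weeks, which held 5 cognitive tests and ended with passive avoidance in weeks 37 to 38, with RNA extraction 1 month later. They were classed by how 2 ranking systems placed their cognition: 5 mice were high, 12 medium and 8 low by both systems, 14 were placed inconsistently, and 2 had incomplete data. Of these 14, replicate 2 also carries a description as consistently medium. This contradictory mouse was kept as inconsistent, and was moved to medium as an alternative. The labels give no drug treatment or genetic change for any mouse, and the groups are defined by behavioural rank alone.

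Brain capillaries form the blood-brain barrier. Their endothelial cells are sealed by tight junctions, carry transporters that import nutrients and export foreign compounds, and depend on signals such as vascular endothelial growth factor and the angiopoietins. Pericytes sit on the outer face of the capillary, and platelet-derived growth factor released by the endothelium recruits them. In a piece of whole tissue these cells contribute a minor share of the RNA.

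Levels are given as log2(intensity + 16) after quantile normalization of the deposited intensities, which ran from 0.0112 to 13549. A level describes 1 probe set and is not comparable between probe sets. Array medians ran from 22.4 to 55.2 before normalization, with low replicate 5 the dimmest. Bacterial and phage spike-in controls sorted the arrays into sets of 8, 10 and 23, with 0, 1 and 4 of the high arrays in them. They are called batches here, but their number, 3, was set beforehand and they are not taken from the labels. Low replicate 5, in the smallest, was also tried in the largest. Medium replicate 9 stood apart, with a median correlation of 0.959 with the other arrays, against 0.975 or more for each of the others. The 16 hippocampal neuron markers measured averaged 7.77 on that array and 8.75 to 9.10 on the others, and 7 striatal markers averaged 9.08 on it and at most 8.16 on the others. Choroid plexus markers, genes of the epithelium that secretes cerebrospinal fluid, split the arrays into 11 bright ones, with a mean level of 8.69 or more, and 30 dim ones at 7.48 or less. The bright arrays were 0 of the 5 high, 4 of the 12 medium, 3 of the 8 low, 3 of the 14 inconsistent and 1 of the 2 incomplete mice.

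No gene of the group passed the test for a difference between ranking classes. In high against low mice, 0 of 15 member probe sets passed a limma adjusted p of 0.05, where 0.00888% of the 22519 probe sets tested did. The count was also 0 of 15 for high against medium mice, where 0.0311% passed, and 0 of 15 for medium against low mice, where 0% passed. None of the 15 reached an unadjusted limma p of 0.05 in any of the 3 contrasts. Over all probe sets 8.16%, 13.2% and 3.1% did (1837, 2971 and 698), in that order. With 15 probe sets, shares of that size leave few or none, so the 0 does not set the members apart. The values of every member overlapped between the groups in each contrast, meaning only that no group lay wholly above or below the other. The share over all probe sets was not counted, so this does not set the members apart. In whole tissue, fewer cells of a type and less RNA per cell cannot be told apart.

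**Figure D1:**
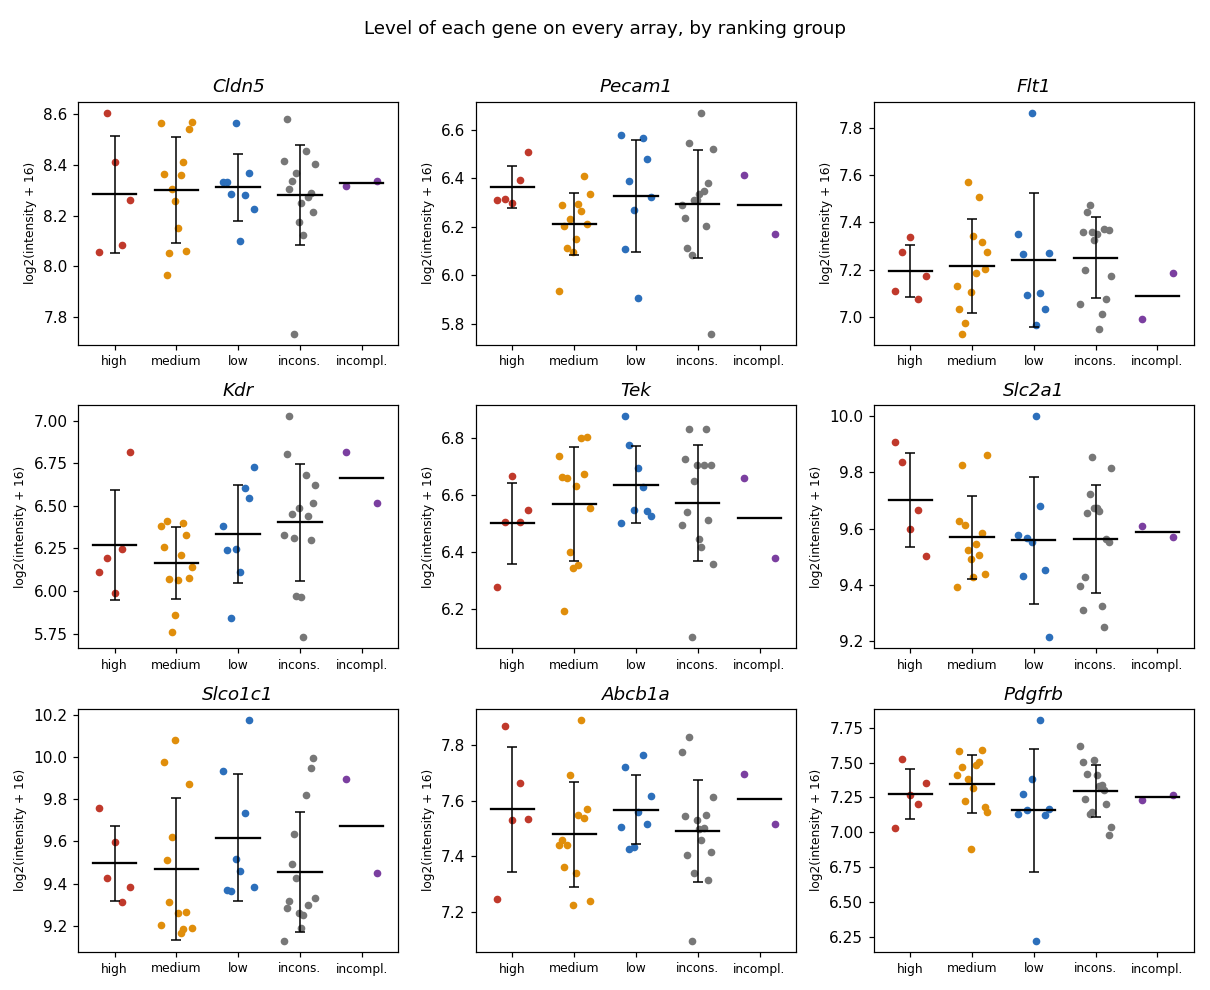
Level of each gene at its brightest probe set, as log2(intensity + 16), on every array in the 5 groups. Points are single mice, bars are group means, and error bars are the SD (not drawn for the 2 incomplete mice). The groups overlap in every panel, and a single low array lies far down for Pdgfrb, at 6.22.

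Cldn5 encodes claudin-5, the main sealing protein of the tight junctions of brain endothelium. Its probe set (1417839_at) read 8.05, 8.61, 8.41, 8.08 and 8.26 in the 5 high mice. The 12 medium mice lay between 7.97 and 8.57 (median 8.33) and the 8 low mice between 8.10 and 8.56 (median 8.31). The 14 inconsistent mice lay between 7.74 and 8.58 (median 8.30), and the incomplete ones read 8.32 and 8.34. Of the 5 high mice, 2 lay above the medium median and 2 above the low median, and 1 of them, at 8.61, lay above all other arrays. The group means were 8.28 ± 0.23 in high, 8.30 ± 0.21 in medium and 8.31 ± 0.13 in low mice (SD, n = 5, 12 and 8). The high minus low difference was -0.03 with a 95% interval of -0.24 to 0.19 (limma adjusted p 0.968).

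Pecam1, an adhesion molecule of endothelial cell contacts, had the lowest adjusted p of the members, in high against medium mice. By unadjusted p the second Abcb1a probe set was lower, at 0.0787 in high against low mice, and that of Pecam1 was 0.0843 in high against medium mice (limma). It (1421287_a_at) read 6.31, 6.31, 6.30, 6.39 and 6.51 in high mice. The 12 medium mice lay between 5.93 and 6.41 (median 6.22), the 8 low mice between 5.90 and 6.58 (median 6.35), the 14 inconsistent mice between 5.76 and 6.67 (median 6.31), and the 2 incomplete mice at 6.17 and 6.41. All 5 high arrays lay above the medium group's median, and 1 of them lay above its highest array. The high minus medium difference was 0.15 ± 0.09 (SE), a fold of 1.11, with a 95% interval of -0.02 to 0.33 and a limma adjusted p of 0.446. Without any normalization between arrays this difference was -0.04. Against the low mice the difference was 0.04, and it was -0.02 without low replicate 5, which held the lowest Pecam1 value among them.

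Flt1 and Kdr encode vascular endothelial growth factor receptors 1 and 2, the first mainly a decoy that limits signalling and the second the main signalling receptor. Flt1 at its brightest probe set (1419300_at) read 7.11, 7.27, 7.34, 7.07 and 7.17 in high mice. Among medium mice the lowest, median and highest levels were 6.93, 7.19 and 7.57, among low mice 6.96, 7.18 and 7.86, and among inconsistent mice 6.95, 7.34 and 7.47, with the incomplete mice at 6.99 and 7.19. The highest value of all 41, in low replicate 4, stood well above the next low array at 7.35. The high minus low difference of -0.05 became 0.04 without that array, and neither passed (limma adjusted p 0.946 and 0.953).

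Flt1 was measured by 3 more probe sets, and the 4 did not follow one another across the mice. Their 6 pairwise Pearson correlations over 41 arrays ran from -0.15 to 0.14, and the lowest Benjamini-Hochberg adjusted permutation p among them, over 11 same-gene pairs, was 0.585. The 3 pairs of Slc2a1 probe sets reached 0.68 to 0.80 and the pair of Abcb1a probe sets 0.45. The Pdgfrb pair, 1 of whose probe sets was under the filter, reached 0.49. For Flt1, a level at 1 probe set therefore does not stand for the others.

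Kdr (1449379_at) read 6.11, 6.19, 5.99, 6.24 and 6.82 in high mice. The 12 medium mice lay between 5.76 and 6.41 (median 6.18), the 8 low mice between 5.84 and 6.73 (median 6.31), the 14 inconsistent mice between 5.73 and 7.03 (median 6.45), and the 2 incomplete mice at 6.51 and 6.82. A single high array lay above every medium and low one, and the other 4 were among them. Medium mice averaged 6.16 ± 0.21 and low mice 6.34 ± 0.29 (SD), a difference of -0.17 ± 0.11 (SE) with a 95% interval of -0.40 to 0.06 (limma adjusted p 0.998).

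Tek encodes Tie2, the receptor of the angiopoietins. Its probe set (1418788_at) read 6.28, 6.50, 6.67, 6.50 and 6.55 in high mice. Among medium mice the lowest, median and highest levels were 6.19, 6.65 and 6.80, among low mice 6.50, 6.59 and 6.88, and among inconsistent mice 6.10, 6.59 and 6.83, with the incomplete mice at 6.38 and 6.66. A single high array lay above the low median, yet all but 1 fell within the low range. The means were 6.50 ± 0.14 in high and 6.64 ± 0.13 in low mice (SD), a difference of -0.14 ± 0.10 (SE) with a 95% interval of -0.33 to 0.06 (limma adjusted p 0.739). The sign of this difference was the same under the 19 alternative settings that gave it a value, with a lowest limma adjusted p of 0.476. It was also the same with each of the 25 ranked arrays left out. Many of these checks could not alter the difference, as with no filter, another variance model or a medium array left out, so they do not test its sign. The difference ran from -0.24 to -0.09 over the settings, and from -0.18 to -0.08 over the arrays left out.

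Slc2a1 encodes GLUT1, through which glucose crosses the barrier, and its mean in high mice was above those in medium and low mice at all 3 of its probe sets, without passing the test. The brightest (1434773_a_at) read 9.91, 9.84, 9.60, 9.67 and 9.50 in high mice. The 12 medium mice lay between 9.39 and 9.86 (median 9.53), the 8 low mice between 9.21 and 10.00 (median 9.56), the 14 inconsistent mice between 9.25 and 9.86 (median 9.61), and the 2 incomplete mice at 9.57 and 9.61. Of the 5 high arrays, 4 lay above the low median, and 1 low array, replicate 5, was above all of them. The high minus low difference was 0.14 ± 0.10 (SE), a fold of 1.11, with a 95% interval of -0.06 to 0.35 (limma adjusted p 0.733). The other probe sets gave 0.14 (adjusted p 0.688) and 0.14 (adjusted p 0.700) in the same limma fit. Against medium mice the brightest probe set differed by 0.13 (adjusted p 0.552), by 0.25 when intensities were scaled to a common array median in place of quantile normalization (adjusted p 0.139), and by -0.01 with no normalization. Of the batches, those of 10 and 23 arrays hold both classes. In the batch of 10, high minus medium was 0.40, from 1 high and 5 medium arrays. In the batch of 23 it was 0.00, from 4 high and 5 medium arrays.

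Slco1c1 encodes a carrier of thyroid hormone found at the barrier and in the choroid plexus, and among medium mice it had the widest spread of the members (SD 0.34). It (1423343_at) read 9.76, 9.43, 9.60, 9.31 and 9.38 in high mice. Among medium mice the lowest, median and highest levels were 9.17, 9.29 and 10.08, among low mice 9.37, 9.49 and 10.18, and among inconsistent mice 9.13, 9.33 and 9.99, with the incomplete mice at 9.45 and 9.89. No high array reached the top of the other groups. The high minus low difference was -0.12 ± 0.16 (SE) with a 95% interval of -0.45 to 0.21, and high minus medium was 0.02 (limma adjusted p 0.884 and 0.959). With the choroid plexus list as a covariate these became 0.12 and 0.23, and without the 11 choroid-bright arrays 0.08 and 0.23. The direction against low mice was thus the opposite in both of these fits, and none of the differences passed (limma adjusted p 0.756, 0.211, 0.931 and 0.288).

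Abcb1a encodes the efflux pump P-glycoprotein of rodent brain endothelium. Its brightest probe set (1419759_at) read 7.25, 7.87, 7.53, 7.66 and 7.53 in high mice. The 12 medium mice lay between 7.23 and 7.89 (median 7.45), the 8 low mice between 7.43 and 7.76 (median 7.54), the 14 inconsistent mice between 7.10 and 7.83 (median 7.50), and the 2 incomplete mice at 7.52 and 7.69. The highest value of all belonged to medium replicate 9, the array with striatal markers. High and low means were equal at 7.57, with a difference of 0.00 and a 95% interval of -0.20 to 0.20. The second Abcb1a probe set (1419758_at) differed by -0.17 ± 0.10 (SE) between high and low mice, the largest high minus low difference in size of the 15, and did not pass (limma adjusted p 0.660).

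Pdgfrb, the receptor through which pericytes are recruited, read 7.03, 7.52, 7.27, 7.20 and 7.36 in high mice at its brighter probe set (1436970_a_at). Among medium mice the lowest, median and highest levels were 6.88, 7.39 and 7.59, among low mice 6.22, 7.16 and 7.81, and among inconsistent mice 6.98, 7.32 and 7.62, with the incomplete mice at 7.23 and 7.27. The low group held both the lowest value of all 41 arrays, in replicate 5, and the highest, in replicate 6. The medium minus low difference of 0.19 ± 0.13 (SE) was the largest of that contrast, with a 95% interval of -0.07 to 0.45 (limma adjusted p 0.998). Without low replicate 5 it was 0.06, and the high minus low difference of 0.12 became -0.02. Within batches, medium minus low was 0.82 in the batch that holds that array, from 2 medium and 2 low arrays, and -0.01 and 0.03 in the others.

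**Figure D2:**
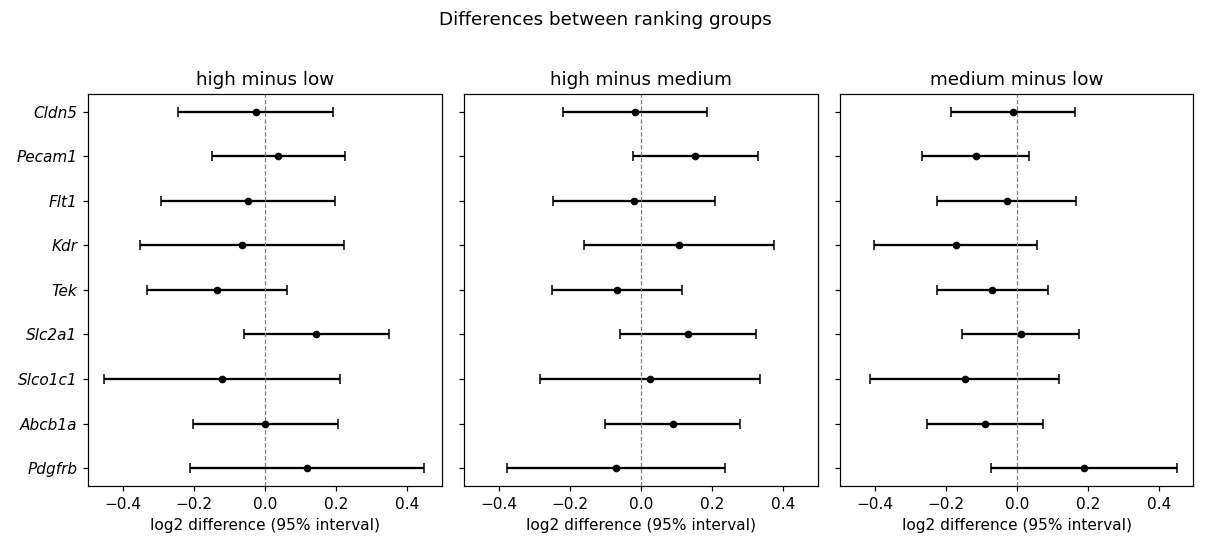
Differences between ranking classes for the 9 genes at their brightest probe sets, in log2 units, with 95% intervals from the limma fit. Every interval crosses 0, and they reach from -0.45 to 0.45.

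Over the 9 brightest probe sets, 4 differences were above 0 for high minus low, with a median of -0.03, against a median of 0.01 over all probe sets. For high minus medium 5 of 9 were above 0 with a median of 0.02, and for medium minus low 2 of 9 with a median of -0.07, where all probe sets had medians of 0.01 and -0.00. The 95% intervals reached from -0.45 to 0.45 for high minus low, from -0.38 to 0.37 for high minus medium, and from -0.41 to 0.45 for medium minus low. Differences of those sizes are not shut out by these arrays, so the misses do not show that the classes are alike. A moderated F test for any difference among the 3 classes, which 0.00888% of probe sets passed, called 0 of 15 members, with a lowest limma adjusted p of 0.683 for Pecam1. With the inconsistent mice as a class of their own beside these, 0.00444% passed and again 0 of 15 members, with a lowest limma adjusted p of 0.726 for Kdr. When the fit held a term for spike-in batch, the count of members called stayed at 0 of 15 in each contrast.

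The rest of the vascular programme gave the same count of calls. Of 12 endothelial adhesion and junction genes tested, 0 passed in either direction in any contrast, and 4 were above 0 for high minus low with a median of -0.14. Tjp1, the junction scaffold ZO-1, had the smallest p of that list, at 9.92 in high and 9.80 in low mice (limma adjusted p 0.582), and against medium mice at 9.75 its difference was 0.16 (limma adjusted p 0.187). Of 18 blood-brain barrier transport genes, 0 passed and 7 were above 0 for high minus low. Among them the organic anion transporter Slc22a8 differed by -0.55 (limma adjusted p 0.553), and Tfrc, the transferrin receptor, averaged 9.28 in high and 9.54 in medium mice (limma adjusted p 0.208). Of 15 pericyte and smooth muscle genes, 0 passed and 7 were above 0 for high minus low, with a median of -0.10. The counts called were likewise 0 of 21 endothelial receptor and signalling genes, 0 of 12 endothelial transcription factors, 0 of 19 vascular ligands and 0 of 14 hypoxia response genes. Among the lists for other cells, 0 of the 8 choroid plexus genes tested, of 16 listed, were above 0 for high minus low, with a median of -1.23. The filter used the mean over all arrays, choroid-bright ones included. These 8 moved together, and 0 of the 5 high and 3 of the 8 low arrays were choroid-bright, so they are not 8 separate results. Of 10 genes of meninges and fibroblasts tested, 1 was above 0 for that contrast, with a median of -0.20. None of the genes of either list passed. Their part in the vascular values was not tested apart from the choroid covariate above.

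Co-variation across the 41 mice was examined next, independently of rank. The question was how far genes of the same cells moved together from mouse to mouse. Over 36 pairs of the 9 genes the median Pearson correlation was 0.06, with 22 pairs above 0, against a median of 0.00 over all 62916153 pairs of the 11218 genes. Choroid plexus genes had a median of 0.91 in the same arrays, where they split into bright and dim, oligodendrocyte genes 0.36 and pericyte and smooth muscle genes 0.14. Of the lists most like the members, 3 had medians close to theirs, at 0.06 for barrier transporters, 0.05 for endothelial transcription factors and 0.06 for endothelial receptors. Endothelial adhesion and junction genes were higher, at 0.14. The members' own median depended on the scaling, at 0.14 with arrays centred on log2 medians and 0.67 with no normalization between arrays.

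**Figure D3:**
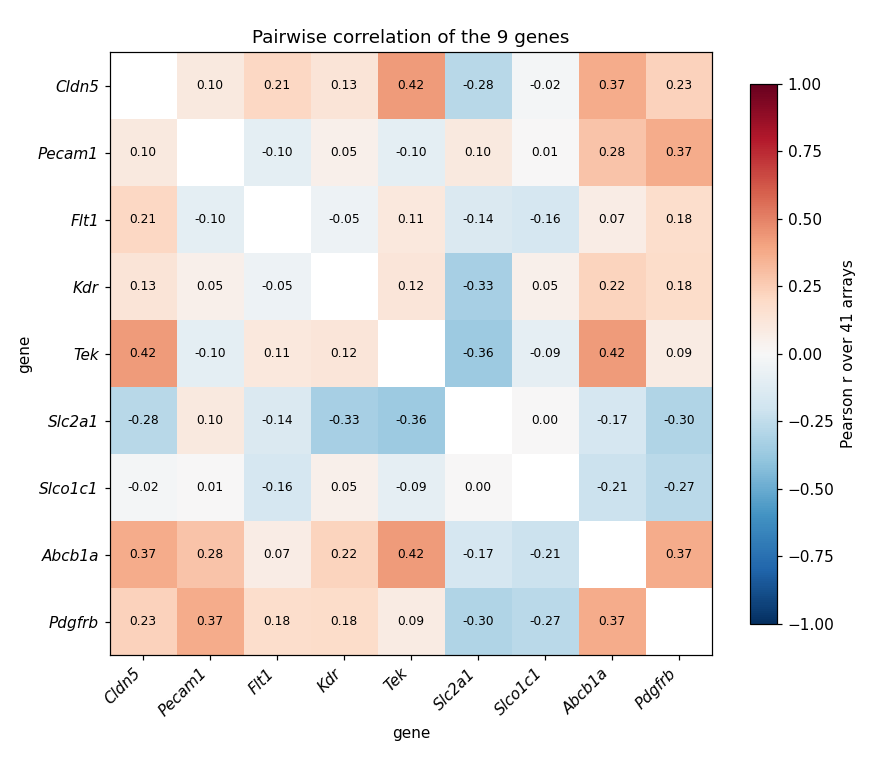
Pearson correlation of each pair of the 9 genes over 41 arrays. The values run from -0.36 for Slc2a1 with Tek to 0.42 for Cldn5 with Tek, and Slc2a1 is negative or close to 0 with most others.

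A first set of positive pairs joined Cldn5, Tek and Abcb1a. Cldn5 and Tek had r = 0.42 and Spearman's rho = 0.27 (permutation p 0.0057 and 0.0841), and r was 0.16 without the 2 arrays farthest from the Cldn5 median. Abcb1a and Tek had r = 0.42 and rho = 0.29 (permutation p 0.00593 and 0.069), and 0.26 without the 2 farthest arrays. Cldn5 and Abcb1a had r = 0.37 and rho = 0.28 (permutation p 0.017 and 0.0762), and 0.18 without them. Each of these relations thus rested in good part on a pair of arrays. Within the batches of 8, 10 and 23 arrays, r was 0.25, 0.61 and 0.23 for Cldn5 with Tek, 0.60, 0.62 and 0.18 for Abcb1a with Tek, and -0.19, 0.59 and 0.21 for Cldn5 with Abcb1a. Without medium replicate 9 the r values were 0.41, 0.38 and 0.36 for these pairs in the same order.

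Pdgfrb paired with Abcb1a at r = 0.37 and rho = 0.43 (permutation p 0.0169 and 0.00548), with 0.34 without the 2 farthest arrays and -0.01, 0.79 and 0.43 within the batches. Pdgfrb and Pecam1 had r = 0.37 but rho = 0.14 (permutation p 0.0181 and 0.393), and 0.22 without low replicate 5. Slc2a1 ran against Tek (r = -0.36, rho = -0.32, permutation p 0.0209 and 0.0397) and Kdr (r = -0.33, rho = -0.30, permutation p 0.0337 and 0.0596). Neither pair kept its sign in every batch, with 0.09, -0.36 and -0.50 within the batches for Tek and -0.65, 0.11 and -0.32 for Kdr. In all, 7 of the 36 pairs had an unadjusted Pearson p under 0.05 and 3 an unadjusted Spearman p under 0.05. After Benjamini-Hochberg adjustment over the 36 pairs, 0 passed by either measure, with lowest adjusted permutation p values of 0.107 and 0.118.

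The sequence just upstream of the start is printed for reference for Cldn5, Tek and Abcb1a, whose pairs did not pass after adjustment. It is also printed for Slco1c1 and Slc2a1, which had a negative r with each of these 3. These are the 250 bases before the annotated start, 5′ to 3′ on the gene's strand, from RefSeq on build GRCm38.p6: chr16:18776597-18776846 for Cldn5, chr4:94739039-94739288 for Tek, chr5:8566841-8567090 for Abcb1a, chr6:141524104-141524353 for Slco1c1 and chr4:119108495-119108744 for Slc2a1, all on the plus strand. Capitals mark matches on either strand to 5 short motifs: GGAA (the core bound by ETS factors), ACAAT (SOX), TAAACA (forkhead), TATAAA (the TATA box) and CCGCCC (a GC box).
Cldn5: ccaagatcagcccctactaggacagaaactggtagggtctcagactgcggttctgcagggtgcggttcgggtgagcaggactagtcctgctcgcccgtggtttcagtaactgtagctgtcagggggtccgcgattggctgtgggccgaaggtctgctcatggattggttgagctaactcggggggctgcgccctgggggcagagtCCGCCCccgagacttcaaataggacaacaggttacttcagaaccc
Tek: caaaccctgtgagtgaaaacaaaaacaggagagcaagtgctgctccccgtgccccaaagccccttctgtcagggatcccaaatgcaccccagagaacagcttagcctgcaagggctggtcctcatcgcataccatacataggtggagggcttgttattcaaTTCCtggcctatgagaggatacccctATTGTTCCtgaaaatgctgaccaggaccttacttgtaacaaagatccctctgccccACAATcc
Abcb1a: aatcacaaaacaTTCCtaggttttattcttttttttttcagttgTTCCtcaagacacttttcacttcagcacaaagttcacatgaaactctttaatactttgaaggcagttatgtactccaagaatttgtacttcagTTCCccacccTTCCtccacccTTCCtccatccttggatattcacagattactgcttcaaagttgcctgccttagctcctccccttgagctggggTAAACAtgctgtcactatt
Slco1c1: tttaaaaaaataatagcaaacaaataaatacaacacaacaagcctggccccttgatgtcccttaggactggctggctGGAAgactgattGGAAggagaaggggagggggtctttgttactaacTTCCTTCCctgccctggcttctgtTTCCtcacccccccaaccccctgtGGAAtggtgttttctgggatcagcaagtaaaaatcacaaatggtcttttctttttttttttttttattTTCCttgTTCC
Slc2a1: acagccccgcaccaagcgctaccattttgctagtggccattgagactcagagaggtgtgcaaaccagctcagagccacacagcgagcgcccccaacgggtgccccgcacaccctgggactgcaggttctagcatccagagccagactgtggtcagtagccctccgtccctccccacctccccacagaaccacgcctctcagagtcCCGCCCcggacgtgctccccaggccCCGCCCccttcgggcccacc
Windows of the same length before 32851 starts held GGAA in 93.4% of cases with a median of 3 matches, ACAAT in 27.7%, TAAACA in 12.0%, TATAAA in 12.4% and CCGCCC in 32.7%. GGAA, the core of factors known from endothelial genes, had 8 matches before Slco1c1, 5 before Abcb1a, 2 before Tek and 0 before Cldn5 and Slc2a1. ACAAT had 2 matches before Tek, of which 1 shares a base with a GGAA match, and TAAACA had 1 before Abcb1a. CCGCCC had 1 match before Cldn5 and 2 before Slc2a1, and TATAAA had 0 in all 5 windows. The GC content was 66.4% for Slc2a1, 59.6% for Cldn5, 51.2% for Tek, 42.8% for Slco1c1 and 40.4% for Abcb1a, against a median of 52.4% over all windows. None of the 5 motifs was found in all 3 windows of Cldn5, Tek and Abcb1a. A match, or its absence, describes the letters of these windows only.

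Slco1c1 followed the choroid plexus markers. Among the 11 choroid-bright arrays its level rose with the mean of the 8 choroid plexus genes, with r = 0.86 and rho = 0.94 (permutation p 0.00048 and 7e-05, adjusted 0.00864 and 0.00126 over 18 relations), and r was 0.90 without the 2 farthest arrays. In these arrays Slco1c1 ran from 9.62 to 10.18 with a median of 9.93. Among the 30 dim arrays r was 0.05 and rho 0.04 (permutation p 0.798 and 0.847), and its level ran from 9.13 to 9.76 with a median of 9.33. Of the 11 arrays highest in Slco1c1, 10 were choroid-bright, and 9 bright arrays exceeded every dim one. No pooled correlation is given, because the arrays form separate clusters. The 8 other members, tested in the same way, had no relation past an adjusted permutation p of 0.05 in either cluster. The closest were Flt1 and Pecam1 in the dim arrays (r = 0.47 and 0.46, adjusted permutation p 0.0636 for both), and without the 2 farthest arrays these were 0.23 and 0.43.

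**Figure D4:**
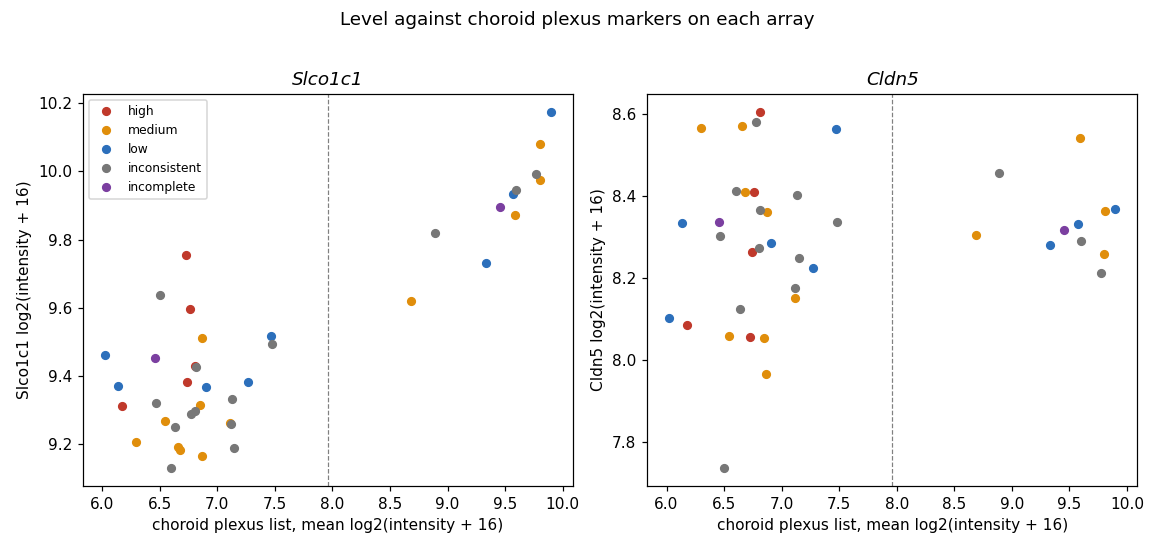
Level of Slco1c1 (left) and Cldn5 (right) against the mean level of 8 choroid plexus genes on each of 41 arrays, both as log2(intensity + 16). The dashed line at 7.96 is the midpoint of the range and separates 30 dim from 11 bright arrays. Slco1c1 is raised on the bright side and climbs there, and Cldn5 shows no such step.

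Each member, at its brightest probe set, was also set against the mean level of 16 other lists, 144 relations in all. The second Abcb1a probe set, at r = 0.45 with the brightest, was not set against them. Abcb1a passed with 4 vascular lists by Pearson correlation over the 41 arrays. With the pericyte and smooth muscle genes it had r = 0.55 and rho = 0.49 (permutation p 0.00012 and 0.00156, adjusted 0.00576 and 0.0749), 0.52 without the 2 farthest arrays, and 0.72, 0.70 and 0.51 within the batches. With endothelial receptors and signalling it had r = 0.47 and rho = 0.42 (adjusted permutation p 0.0427 and 0.110), and 0.55, 0.52 and 0.53 within the batches. With adhesion and junction genes r was 0.47 and rho 0.46 (adjusted permutation p 0.0427 and 0.0830), and within batches 0.44, 0.66 and 0.30. With barrier transporters r was 0.48 and rho 0.30 (adjusted permutation p 0.0427 and 0.259), but 0.25 without the 2 farthest arrays and 0.37 without medium replicate 9. By rank, 0 of these 4 relations passed after adjustment, with rho between 0.30 and 0.49.

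Pdgfrb followed the list of its own cell type, the pericyte and smooth muscle genes, with r = 0.46 and rho = 0.53 (permutation p 0.00414 and 0.00036, adjusted 0.0682 and 0.0259). This r was 0.58 without low replicate 5 and 0.22, 0.64 and 0.62 within the batches. Slco1c1 had r = 0.56 and rho = 0.45 with the adhesion and junction genes (adjusted permutation p 0.00576 and 0.0830), but -0.02 within the choroid-dim and 0.08 within the choroid-bright arrays. Apart from choroid plexus, 5 of the relations passed by Pearson, 1 by Spearman and 0 by both. Flt1, Kdr, Tek, Cldn5, Pecam1 and Slc2a1 passed with none of the lists.

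As a description, the 9 members' standardized levels were averaged per array and set beside the same average for other lists. Over 41 arrays r was 0.67 with adhesion and junction genes, 0.59 with barrier transporters, 0.55 with pericyte and smooth muscle genes, 0.54 with meninges and fibroblasts, and 0.50 with endothelial receptors. It was 0.31 with vascular ligands, 0.24 with endothelial transcription factors, 0.16 with microglia and macrophages, -0.02 with hypoxia genes and -0.20 with astrocytes. Within the batches of 8, 10 and 23 arrays, r with adhesion and junction genes was 0.73, 0.79 and 0.56. The median r of this average with 11209 other genes was 0.02. These first 5, 4 of them lists of vessel cells, stood highest of the 16, although single pairs of members were weakly correlated.

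**Figure D5:**
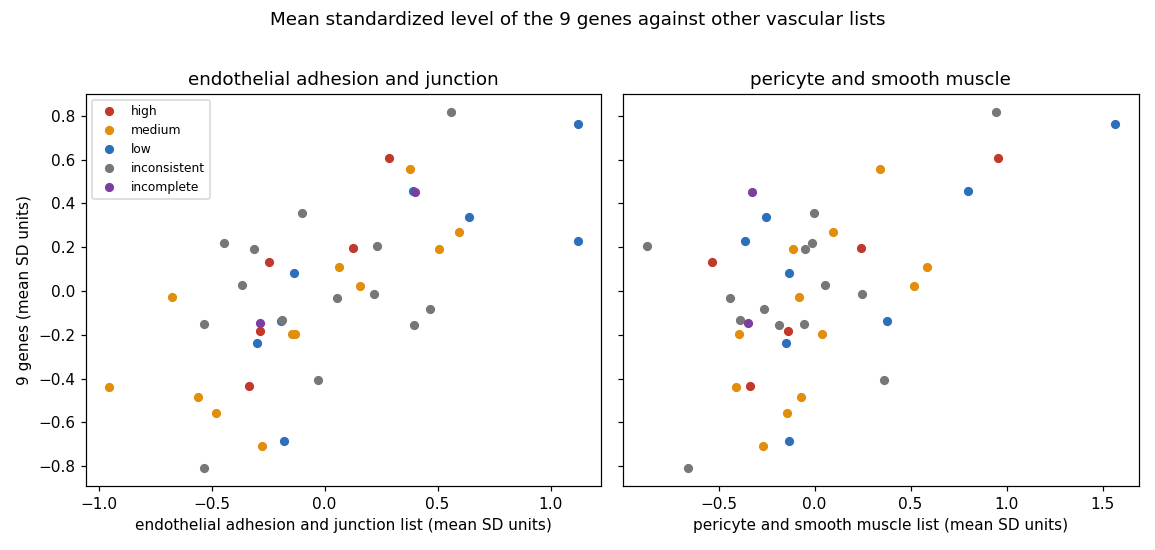
Mean standardized level of the 9 genes (vertical, in SD units) against that of the endothelial adhesion and junction list (left) and of the pericyte and smooth muscle list (right), for 41 arrays coloured by group. The points slope upward in both panels (r = 0.67 and 0.55), with the groups mixed.

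The genes most like that average were Ptprb (r = 0.73), the vascular endothelial protein tyrosine phosphatase that acts on Tie2, and Itm2a (0.71), both in the list of endothelial receptors and signalling. Tgfbr2, the type II receptor of TGF-beta, followed at 0.66, the collagen receptor Ddr2 at 0.65, von Willebrand factor (Vwf) at 0.64, and vitronectin (Vtn), a pericyte product in brain, at 0.63. The others of the first 12 were Cp, Lyz2, Cav1, Nelfb, Col1a2 and Kank2, at 0.61 to 0.58. With batch means removed Ptprb kept 0.69 and Itm2a 0.68. These are the highest of 11209 values and carry no test.

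Gene by gene, most of the closest partners were in none of the lists. Abcb1a was closest to Ptprb (r = 0.70) and Itm2a (0.66), and these held within choroid-dim arrays at 0.67 and 0.64. Slc2a1 was closest to Sult1a1 (0.78), a phenol sulfotransferase, and to Mfsd2a (0.77), the lipid transporter of barrier endothelium. All 3 Slc2a1 probe sets shared this, at 0.58 to 0.78 with Sult1a1 and 0.69 to 0.77 with Mfsd2a, yet within the choroid-bright arrays the brightest gave 0.17 and 0.42. Pdgfrb was closest to Mast2 (0.77) and Fbxo31 (0.75), Tek to Tril (0.68) and Herc1 (0.58), and Cldn5 to Gbp7 (0.61) and Far2 (0.58). Kdr was closest to Tmco3 (0.60) and Spata13 (0.55), Pecam1 to Itpripl2 (0.60) and Bckdha (0.59), and Flt1 to Ppp1r3f (0.50) and Rtl5 (0.49). Slco1c1 was closest to Car12, a carbonic anhydrase, and Kl, the choroid plexus marker klotho. Its r with these was 0.85 and 0.85 in the choroid-bright arrays and 0.41 and 0.24 in the dim ones.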

How the data were processed

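Hippocampal RNA of 41 mice was measured, 1 array each, so p-values rest on the spread between mice. Partek and RMA appear in the submitters' processing notes, with no version. By their range the deposited values are probe set intensities on a linear scale. How the authors made them is not given in the labels. Intensities were quantile-normalized over 41 arrays and put on log2(intensity + 16). The 22519 of 45037 probe sets at or above the median mean level were tested. The 25 high, medium and low arrays were fitted with limma 3.58.1 in R 4.3.3, 1 mean per group, with Benjamini-Hochberg adjustment and a threshold of 0.05. Each gene was described at its brightest tested probe set. Correlations used 100000 permutations, and the lowest p they can give is 1e-05. Spike-in batches came from Ward clustering of 45 control probe sets, cut at a preset number of 3 clusters. The members, gene lists, offset, batches and motifs were chosen with earlier results of these data, or the sequences, known. Genes named for likeness were the 12 highest r with the members' average and the 2 highest for each member. In the other lists, named genes were those with the smallest p or a known barrier role, chosen after their values were seen. Steps were tested on simulated data. Of the 10 genes, 8 have an entry in the promoter table, and Pecam1 and Pdgfrb have none. The alternatives covered the filter, normalization, offset, variance model, arrays, covariates, batches, blocks and leaving out each array. Same-numbered mice did not deviate together: of 18 pairs, 1 correlated above 0.1, with a median of -0.02.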

Additional observations from a re-analysis of the deposited data

Results flagged for a closer look

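Among 32 tests of a group of 5 or 8 arrays for a value far from its neighbours, 2 stood out, where chance gives about 1 in 20. Flt1 at 1419300_at was 7.86 in low replicate 4, with the next low array at 7.35. Over 41 arrays the other Flt1 probe sets correlated with this one at -0.07 to 0.14. Pdgfrb at 1436970_a_at was 6.22 in low replicate 5, with the next low array at 7.12. At its second probe set, 1417148_at, that array (4.60) did not stand apart, since low replicate 8 read 4.61, inconsistent replicate 13 read 4.40 and incomplete replicate 1 read 4.48. Low replicate 5 had the lowest median intensity of all, 22.4.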

How the results depend on the processing

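Of 1197 differences of single members under 45 alternatives, 0 passed, with a lowest limma adjusted p of 0.139. The sign was the opposite in 86, and 4 moved by more than the spread between mice. Many of the 1197 could not differ from the main value, as under another filter or without an array of neither group. The 86 and 4 are therefore not shares of values that were free to change. The count of members called was 0 in each contrast under each alternative. The counts over all probe sets moved more. For high minus low, 2 were called. The count was 1 with the stricter filter, with variance trend and robust, with 1 probe set per gene, with all 41 arrays in 1 fit and with the contradictory mouse as medium, 4 with the choroid covariate, and 5 with intensities scaled to a common median. It was 0 when arrays were centred on log2 medians, with no normalization, with only the 2 groups, in the largest batch alone, without choroid-bright arrays and by the exact rank-sum test. For high minus medium, 7 were called. The count was 1 with no filter and in the largest batch, 4 with low replicate 5 in the largest batch, 11 with the stricter filter, 15 with variance trend and robust, 23 with all 41 arrays, 354 with array weights and 967 with scaled intensities, of which 922 were higher and 45 lower, against 4 and 3. It was 0 under log2 centring, no normalization, only the 2 groups, no choroid-bright arrays and the rank-sum test. Leaving out 1 array gave 0 to 16, and 0 without high replicates 2, 3 or 4 or medium replicates 4, 7 or 10. For any difference among 3 classes, 2 were called, with 0 under log2 centring, no normalization, the largest batch alone and no choroid-bright arrays, 1 with an offset of 50, all 41 arrays or the contradictory mouse as medium, 5 with low replicate 5 moved, 33 with array weights and 62 with scaled intensities, and 0 to 4 when leaving out 1 array. With inconsistent mice as a further class, 1 was called, with 3 under no filter, 25 with array weights, 361 with scaled intensities, 0 under the 4 settings just named, and 0 to 4 when leaving out 1 array. For medium minus low it was 0 in all, with 698 at an unadjusted p under 0.05. The replicate number as a block gave 0 calls in each of these comparisons, with 2102, 3060 and 1240 unadjusted for the 3 contrasts. The numbers do not pair the mice. The scaled intensities and the moved low replicate 5 were chosen after seeing the data, the scaling after the log2 centring had given 0 calls. The cause of these moves was not tested. Without normalization the median difference of all probe sets was -0.17 for high minus medium and 0.11 for medium minus low. The median pairwise correlation of the members was 0.0642 in the main analysis, the only setting with a median over all genes beside it. It was 0.136 with log2 centring, 0.0940 with scaled intensities, 0.667 with no normalization, 0.0383 and 0.0335 with group and batch means removed, 0.135, 0.108 and -0.0424 within the batches, 0.0207 over the 25 ranked arrays, 0.0349 over every tested probe set, and 0.0448 to 0.0908 when leaving out 1 array. The tests across classes have no value with only 2 groups or the rank-sum test, the test with inconsistent mice none for 41 arrays in 1 fit, and members under the stricter filter none there. The number of arrays limits all of this: 5 high mice.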
